A study of Homo sapiens with 4 samples.

Results

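The genes described here are the cyclins, the cyclin-dependent kinases (CDKs), the CDK inhibitors, the CDC25 phosphatases and their direct regulators. They were taken as a list of 50 gene symbols, and every array probe whose RefSeq accession belongs to a listed gene was used, without control spots. All 50 genes had a probe, 70 probes in all, out of 22439 genes matched on the array. A value could be given for 49 of them, since the only probe of *CDK18* was not well above background on any array.

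Cells labelled A549, a human lung adenocarcinoma line grown in RPMI medium, received either strand of the *miR-486* precursor, *miR-486-5p* or its partner *miR-486-3p*, by Lipofectamine RNAiMAX transfection. Control cells received the reagent without a miRNA (mock). Cy3-labelled RNA of each sample was hybridized to a 1-colour Agilent expression array, with 1 array from each strand and 2 from mock cells. The study searched for putative targets of each strand, and then for those that the strands share.

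Cyclins bind and activate CDKs, and each pair acts at its own stage. D cyclins act with CDK4 and CDK6 in G1, E cyclins with CDK2 at the start of S phase, and B cyclins with CDK1 in mitosis. A cyclins act in S phase and G2. WEE1 and PKMYT1 add inhibitory phosphates to CDK1, CDC25 phosphatases take them off, and the INK4 and CIP/KIP inhibitors block the kinases. Another branch of the family acts on RNA polymerase II in transcription and RNA processing.

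The cell line label was checked first, and the values went against it. A549 is known for the loss of both copies of *CDKN2A* and *CDKN2B* on chromosome arm 9p, and for high levels of aldo-keto reductases under the transcription factor NRF2. A probe was well above background if the scanner software marked it so, and the lowest signal marked so was between 4.28 and 4.43 on the 4 arrays. The brighter probe of *CDKN2A* had background-corrected signals of 7439 and 7208 in mock cells, 4918 with *miR-486-5p* and 1383 with *miR-486-3p*. The other *CDKN2A* probe gave 1299 and 1340 in mock cells, 975 with *miR-486-5p* and 212 with *miR-486-3p*. *CDKN2B* gave 61.2 and 64.4 in mock cells, 36.2 with *miR-486-5p* and 7.61 with *miR-486-3p*. All 3 probes were well above background on all 4 arrays, so signal from this locus was present in every sample, mock included. So were the 3 probes of the neighbouring gene *MTAP*, which is often lost together with *CDKN2A*. The brightest of them had 859 and 861 in mock cells, 733 with *miR-486-5p* and 367 with *miR-486-3p*.

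Both probes of *AKR1B10*, the NRF2-dependent reductase most typical of A549, were not well above background on either mock array, with signals from 0.947 to 1.53. Of the 8 genes listed as high in A549 through NRF2, 7 had a probe, and 6 had a probe well above background on both mock arrays. Their 11 probes summed to 220 and 234 in mock cells, 230 with *miR-486-5p* and 394 with *miR-486-3p*, and *NQO1* was the brightest, at 133 on mock 1. Among 6 epithelial markers, *KRT7*, *KRT8*, *KRT18* and *KRT19* were well above background on all 4 arrays, *CDH1* on none, and *EPCAM* on 2 of the 4. Of the immune markers, *CD14*, *CD3E* and 2 of 5 *PTPRC* probes were well above background on all arrays. Endothelial and fibroblast lists summed to 65.2 to 70.2 and to 29.0 to 32.3 on the mock arrays. In these lists *CDH5*, *VWF*, *PDGFRB* and *DCN* had a probe well above background on all 4 arrays and *COL1A1* on the mock arrays only, while *PECAM1*, *KDR*, *COL1A2*, *COL3A1* and *PDGFRA* had none on any array. The origin of the 9p signal, and whether each probe binds only its named gene, was not tested. The samples are therefore called cells labelled A549 throughout.

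**Figure D1:**
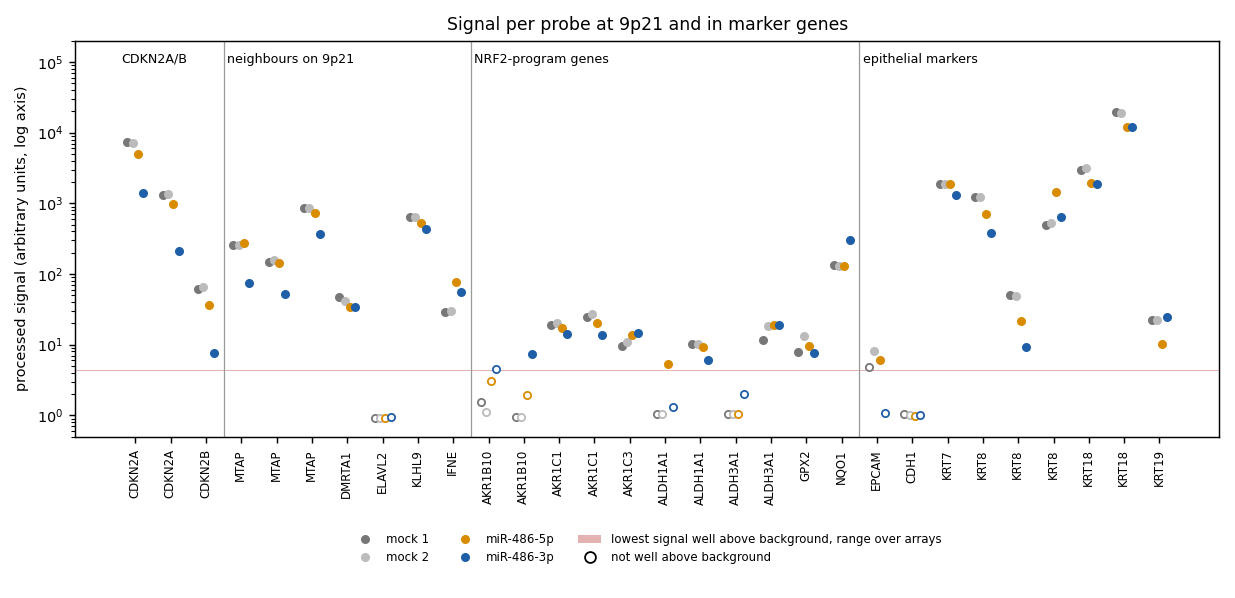
Background-corrected signal (arbitrary units, log axis) of each probe of *CDKN2A*, *CDKN2B*, neighbouring genes on 9p, NRF2-dependent genes and epithelial markers, with 1 point per array and open points where the probe was not well above background. The band marks the lowest signals well above background, 4.28 to 4.43, and the *CDKN2A*, *CDKN2B* and *MTAP* points all lie above it.

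Levels below are log2 signals relative to the 75th percentile of their array, and a difference is the level on a transfected array less the average mock level. Several probes of 1 gene were averaged. Differences below −0.5, where the study's list of shared targets ends, and above 0.5 were counted. As a second rule, limma was fitted to all arrays (Benjamini-Hochberg adjusted p under 0.05 for at least 1 probe). With 1 array per strand, limma takes its spread from the mock pair and assumes that each transfected array varies in the same way. A gene is said to have risen or fallen where limma called it.

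After *miR-486-3p* the mitotic cyclins, CDK1 and its activators fell to a small part of their mock level, and the D-cyclin kinases, CDK2 and the INK4 inhibitors *CDKN2A*, *CDKN2B* and *CDKN2C* fell with them. Cyclin E1, the CIP/KIP inhibitors *CDKN1B* and *CDKN1C* and the transcription cyclins *CCNL1*, *CCNL2* and *CCNT1* rose, and the transcription cyclin *CCNH* fell. The transcription group as a whole had no direction that held under both scalings. After *miR-486-5p* the mitotic genes were also lower, by about 2-fold, while G1 and transcription genes lay close to mock.

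For *miR-486-5p*, 16 of the 49 measured genes lay below −0.5, against 15.9% of all 16024 genes measured, and 3 lay above 0.5, against 13.8%. Their median difference was −0.16, and that of all genes was 0.03. limma called 8 lower, where it called 6.66% of 16662 genes lower, and called 0 higher, where it called 3.58% of genes higher. At an unadjusted p under 0.05, limma gave 22 lower and 7 higher, where it gave 25.1% and 23.3% of all genes. The adjusted count was not stable: it was 0 lower with no filter on dim probes or with the authors' log2 table, and 22 lower with an intensity trend in limma.

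For *miR-486-3p*, 23 of 49 lay below −0.5, against 27.2% of 16446 genes, and 11 lay above 0.5, against 30.4%. The median was −0.40, and that of all genes was 0.06. limma called 23 lower and 13 higher, where it called 31.6% and 31.9% of all genes. This balance depended on the scaling. With median scaling limma called 32 lower and 9 higher, beside 7574 lower and 3413 higher of 16662 genes. Against *miR-486-5p*, the *miR-486-3p* array was below −0.5 for 25 of 49 genes (26.4% of all genes) and above 0.5 for 10 (28.6%). limma called 24 lower and 11 higher in that contrast, where it called 27.3% and 26.7% of all genes. The mock arrays differed by more than 0.5 for 0 of the 49 genes, where 2.96% of all genes did, and the largest gap among them was 0.37 in size. The methods' t-test, with 1 array against 2, called 0 genes after adjustment, and at the unadjusted 0.05 level it gave 13 lower and 5 higher with the 5p strand (14.0% and 12.3% of all genes), and 23 lower and 12 higher with the 3p strand (23.2% and 19.6%). Both strands were compared with the same mock arrays, so their differences are not independent of each other.

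**Figure D2:**
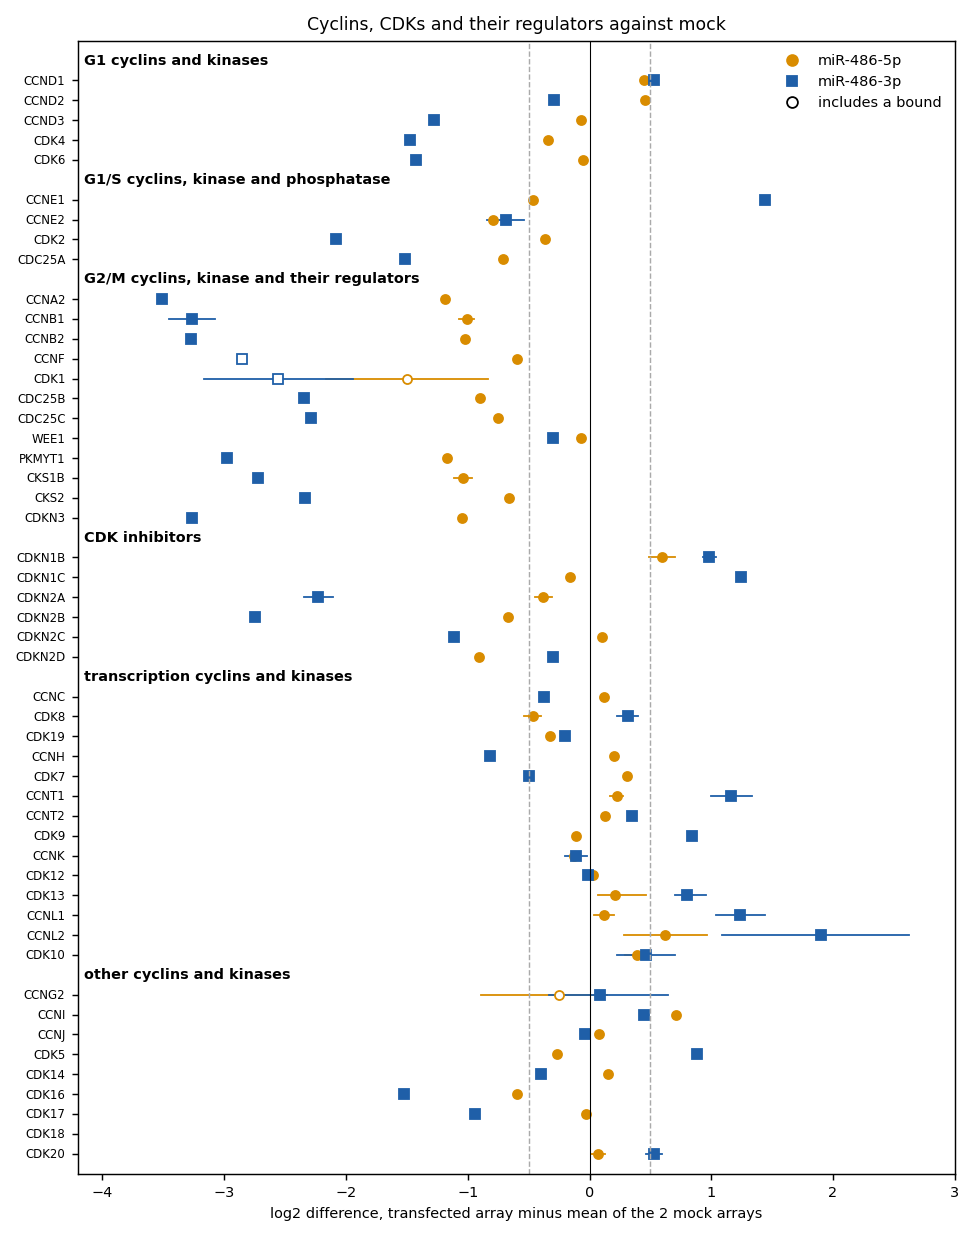
Log2 difference of each gene from the mock average (x axis) by role (y axis), with *miR-486-5p* as circles and *miR-486-3p* as squares; bars span the probes of a gene, open symbols include a bound, and dashed lines mark −0.5 and 0.5. In the G2/M group, 11 of 12 genes lie left of −0.5 for each strand, and *WEE1* does not.

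Among the G1 genes, the 5 D-type cyclins and their kinases, 0 lay past 0.5 after *miR-486-5p* and limma called 0 of them, while *CDK4*, *CDK6* and *CCND3* fell after *miR-486-3p*. *CDK4* was at 5.08 and 5.12 in mock cells, 4.75 with *miR-486-5p* and 3.62 with *miR-486-3p*. *CDK6*, the second kinase of the D cyclins, had 5.07 and 4.92 on the mock arrays, 4.94 and 3.57 after the strands in the same order. *CCND3* stood at 2.31 and 2.41 in mock cells, 2.29 with *miR-486-5p* and 1.09 with *miR-486-3p*. In these 3 genes the *miR-486-3p* array was far below the other arrays, and the array with *miR-486-5p* lay within 0.40 of both mock arrays. After *miR-486-3p* they were 2.78-fold, 2.68-fold and 2.42-fold lower in that order, with limma adjusted p of 0.00845, 0.0106 and 0.0102. *CCND1*, the most studied D cyclin, was called higher after *miR-486-3p*, by 0.53 with an adjusted p of 0.0287 in limma, but with median scaling it was at 0.16 and was not called. Its difference after *miR-486-5p* was 0.45. *CCND2* had differences of 0.46 and −0.29, neither of which limma called.

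The G1/S genes were split after *miR-486-3p*. *CCNE1*, which activates CDK2 at the entry to S phase, had levels of 3.10 and 3.07 in mock cells, 2.63 with *miR-486-5p* and 4.53 with *miR-486-3p*. Its partner kinase *CDK2* had 0.29 and 0.14 in mock cells, −0.15 with *miR-486-5p* and −1.87 with *miR-486-3p*. The cyclin was thus highest, and the kinase lowest, on the same array. *CCNE1* was 2.72-fold higher and *CDK2* 4.23-fold lower than mock after *miR-486-3p*, with limma adjusted p of 0.00849 and 0.00821. *CDC25A*, the phosphatase that activates CDK2, was at 1.78 and 1.67 in mock cells, 1.02 with *miR-486-5p* and 0.21 with *miR-486-3p*, a fall of 2.86-fold after the latter (adjusted p = 0.00905 in limma). *CCNE2*, the second E cyclin, averaged −0.12 and −0.28 in mock cells, −0.99 with *miR-486-5p* and −0.89 with *miR-486-3p* over its 2 probes. Both strands lay below both mock arrays by similar amounts for *CCNE2*, and only its brighter probe was called, after *miR-486-3p*. After *miR-486-5p* limma called 0 of the 4 G1/S genes (2 lay below −0.5).

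Most of the G2/M genes fell after *miR-486-3p*. Of 12, limma called 11 lower after *miR-486-3p* and 7 with the 5p strand, where it called 31.6% and 6.66% of all genes lower. Their median differences were −2.79 and −1.02 in that order, beside 0.06 and 0.03 for all genes. RNA of whole cultures was measured, so fewer cells in a phase and less RNA per cell cannot be told apart. *CCNA2*, the cyclin of S phase and G2, had levels of 2.79 and 2.74 in mock cells, 1.58 with *miR-486-5p* and −0.74 with *miR-486-3p*. *CCNB1*, the main mitotic cyclin, averaged 4.59 and 4.55 in mock cells, 3.56 with *miR-486-5p* and 1.30 with *miR-486-3p* over 2 probes. *CCNB2*, the other B cyclin, gave 5.89 and 5.84, then 4.84 and 2.59 in the same order. In all 3 the mock levels, averaged over probes for *CCNB1*, were at most 0.051 apart. The *miR-486-5p* array lay about 1 unit lower and *miR-486-3p* lowest. The *miR-486-3p* values were 11.4-fold, 9.63-fold and 9.66-fold below mock, with an adjusted p of 0.00762 in limma for every probe. The *miR-486-5p* values were 2.28-fold, 2.01-fold and 2.04-fold below mock, with limma adjusted p from 0.0475 to 0.0494.

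CDK1, the kinase of the B cyclins, was read by 2 probes. The brighter *CDK1* probe had 3.32 and 3.22 in mock cells, 2.44 with *miR-486-5p* and 0.10 with *miR-486-3p*. The other *CDK1* probe, with −2.48 and −2.41 on the mock arrays, was not well above background after either strand. The brighter probe had differences of −0.83 and −3.17, with limma adjusted p of 0.0523 and 0.00762, so it was called after *miR-486-3p* alone. The call of *CDK1* with the 5p strand came only from the dim probe. *CCNF*, a cyclin that serves as a ubiquitin ligase subunit, was not well above background after *miR-486-3p* and was at least 7.22-fold lower there (adjusted p = 0.00762 in limma). Such bounds set the mean of the mock arrays against the higher of the dim probe's own signal and the lowest signal well above background on that array.

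The regulators of CDK1 moved in the same direction whether they activate or restrain it, apart from *WEE1*. *CDC25B* was at 3.41 and 3.54 in mock cells, 2.58 with *miR-486-5p* and 1.13 with *miR-486-3p*. *CDC25C* had 1.51 and 1.54 in mock cells, 0.77 with *miR-486-5p* and −0.76 with *miR-486-3p*. *PKMYT1*, an inhibitory kinase of CDK1, had 4.70 and 4.71 in mock cells, 3.53 with *miR-486-5p* and 1.72 with *miR-486-3p*. In each gene the order of the arrays was that of the cyclins. The falls after *miR-486-3p* were 5.09-fold for *CDC25B*, 4.87-fold for *CDC25C* and 7.89-fold for *PKMYT1*. *WEE1*, the other inhibitory kinase, had 1.48 and 1.42 in mock cells, 1.38 with *miR-486-5p* and 1.15 with *miR-486-3p*, and limma did not call it for either strand (adjusted p = 0.629 and 0.0875). Of the pair of CDK1 inhibitory kinases, *PKMYT1* therefore fell and the values of *WEE1* lay within 0.5 of mock.

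CKS proteins bind CDKs as accessory subunits, and CDKN3 is a phosphatase of CDKs. *CKS1B* averaged 5.24 and 5.20 in mock cells, 4.18 with *miR-486-5p* and 2.50 with *miR-486-3p*. *CKS2* gave 6.66 and 6.62 in mock cells, 5.97 with *miR-486-5p* and 4.30 with *miR-486-3p*. *CDKN3* averaged 3.00 and 2.85 in mock cells, 1.88 with *miR-486-5p* and −0.34 with *miR-486-3p*. The strands kept the same order in all 3, with falls of 6.59-fold, 5.05-fold and 9.61-fold after *miR-486-3p* (limma adjusted p = 0.00762 for each probe). After *miR-486-5p*, limma called *CKS1B*, *CDKN3* and *PKMYT1* lower but not *CKS2*, *CDC25B* or *CDC25C*, whose differences were −0.66, −0.90 and −0.75 with adjusted p of 0.0548, 0.0523 and 0.0519. In the direct contrast, 11 of the 12 G2/M genes were lower after *miR-486-3p* than after *miR-486-5p* by limma, with a median difference of −2.02.

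**Figure D3:**
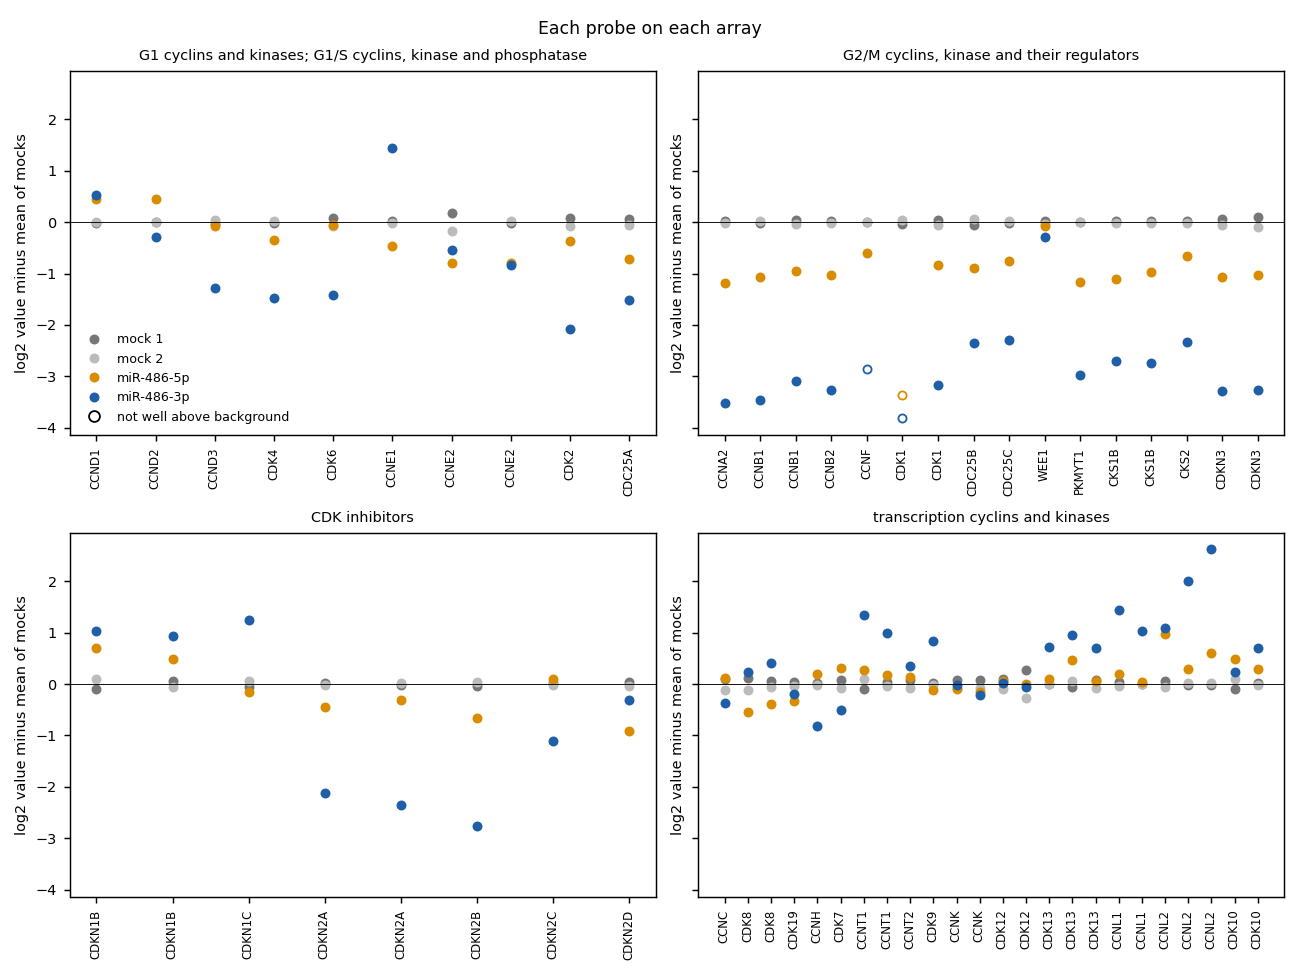
Log2 value of each probe minus the mean of its mock values (y axis) on the 4 arrays, with the genes of 4 role groups on the x axis and open points where the probe was not well above background. In the G2/M panel the order is mock, *miR-486-5p*, *miR-486-3p* for every probe with no open point.

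Because limma called 11 of the 12 G2/M genes lower after *miR-486-3p*, promoters were searched. RefSeq windows on GRCh38.p14, from 250 bases before to 50 after a start site, were found for 43 of the 50 genes (66 windows, some of which overlap), and *CDKN1C*, *CCNE2*, *WEE1*, *CCND2*, *CDK2*, *PKMYT1* and *CCND1* were not analysed here. The motifs were CCAAT, bound by NF-Y, TTTGAA, the cell cycle genes homology region (CHR) bound by MuvB complexes, and GCGGGAA, bound by E2F, each on either strand. CCAAT was found for 10 of the 10 G2/M genes in the table and for 14 of the 33 other genes, beside 39.7% of the 27305 genes of the whole table. TTTGAA was found for 7 of the 10 and for 3 of the 33, beside 18.2% of all genes, and GCGGGAA for 2 of the 10 and 2 of the 33, beside 7.82%. By window, CCAAT was in 13 of 17 G2/M windows (34.6% of all windows), TTTGAA in 9 (15.2%) and GCGGGAA in 3 (6.55%). A match is a description of the letters only, and genes with several windows had more chances of one.

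The 100 bases before the start site are shown for 5 of the G2/M genes with both CCAAT and TTTGAA there. These genes were chosen because they hold these matches. *CCNB1* and *CCNA2* are shown too, and of the motifs searched they hold CCAAT alone there. Only TTTGAA was searched as the CHR, so other forms of it were not looked for. Each is written 5′ to 3′ on the strand of the gene, and capitals mark a motif on either strand.
CCNB2, chr15:59105046-59105145, plus strand: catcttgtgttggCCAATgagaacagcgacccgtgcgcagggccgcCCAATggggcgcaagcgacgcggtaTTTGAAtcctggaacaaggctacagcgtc
CKS1B, chr1:154974581-154974680, plus strand: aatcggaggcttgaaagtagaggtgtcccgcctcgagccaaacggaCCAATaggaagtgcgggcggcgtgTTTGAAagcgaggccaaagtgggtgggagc
CKS2, chr9:89311095-89311194, plus strand: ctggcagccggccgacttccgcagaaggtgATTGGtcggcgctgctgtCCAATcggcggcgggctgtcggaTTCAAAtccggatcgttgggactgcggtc
CDC25C, chr5:138331805-138331904, minus strand: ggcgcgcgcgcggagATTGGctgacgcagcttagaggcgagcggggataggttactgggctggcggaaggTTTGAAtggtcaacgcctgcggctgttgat
CDK1, chr10:60778378-60778477, plus strand: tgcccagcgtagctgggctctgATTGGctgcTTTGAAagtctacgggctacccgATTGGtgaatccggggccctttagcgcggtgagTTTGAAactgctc
CCNB1, chr5:69167050-69167149, plus strand: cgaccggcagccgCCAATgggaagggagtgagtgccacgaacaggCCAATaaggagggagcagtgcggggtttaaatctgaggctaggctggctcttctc
CCNA2, chr4:121823884-121823983, minus strand: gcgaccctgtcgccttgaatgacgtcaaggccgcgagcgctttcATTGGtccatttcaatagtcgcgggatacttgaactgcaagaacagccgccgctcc
In *CCNB2*, *CKS1B*, *CKS2* and *CDC25C* the TTTGAA match began 29 or 30 bases before the start site, with CCAAT upstream of it.

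**Figure D4:**
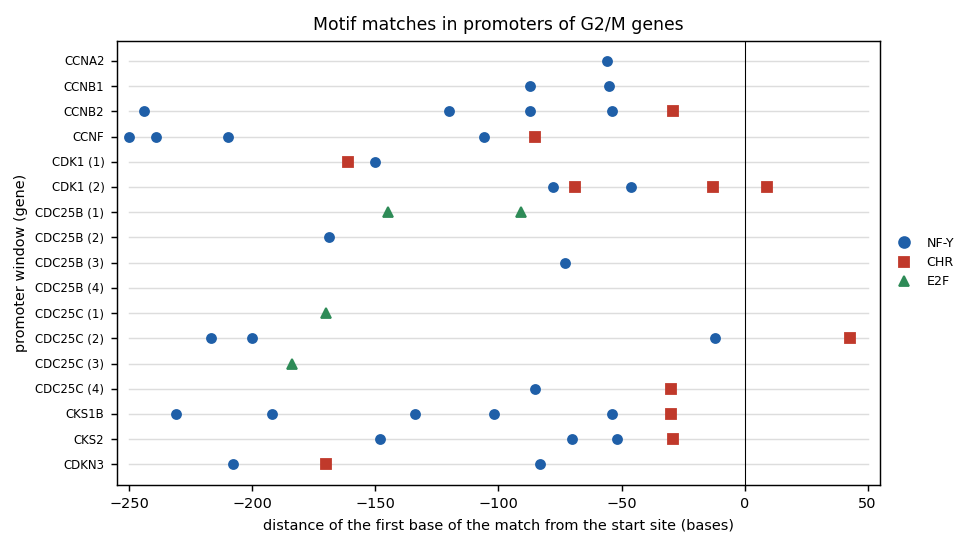
Distance in bases of the first base of each motif match from the start site (x axis) in the promoter windows of the G2/M genes (y axis), with numbered windows where a gene has several. NF-Y matches are present for all 10 genes, and CHR matches, searched as TTTGAA only, for 7.

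The CDK inhibitors did not move as a group. After *miR-486-3p* limma called 3 of 6 lower and 2 higher (31.6% and 31.9% of all genes), and after *miR-486-5p* 1 lower (6.66% of all genes). *CDKN2A* averaged 4.77 on each mock array, 4.39 with *miR-486-5p* and 2.54 with *miR-486-3p* over its 2 probes. *CDKN2B* had −0.90 and −0.83 in mock cells, −1.53 with *miR-486-5p* and −3.61 with *miR-486-3p*. *CDKN2C*, an INK4 inhibitor outside the 9p locus, was at 2.78 and 2.76 in mock cells, 2.88 with *miR-486-5p* and 1.66 with *miR-486-3p*. All 3 were lowest after *miR-486-3p*, where they were 4.68-fold, 6.72-fold and 2.16-fold below mock, with adjusted p of 0.00762, 0.00762 and 0.0103 in limma. The size for the dim *CDKN2B* probe depended on the background correction, and under normexp its difference was −0.79 in place of −2.75. Sizes of other named genes depended on it too, with 41 values counted as moved under normexp and 30 as the same. After *miR-486-5p*, *CDKN2A* and *CDKN2B* had differences of −0.38 and −0.67, which limma did not call.

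*CDKN1B*, which encodes p27 and holds CDK2 inactive, averaged 1.44 and 1.47 in mock cells, 2.05 with *miR-486-5p* and 2.44 with *miR-486-3p*. *CDKN1C*, which encodes p57, had 0.32 and 0.42 in mock cells, 0.21 with *miR-486-5p* and 1.62 with *miR-486-3p*. *CDKN2D*, the last INK4 inhibitor, stood at 4.76 and 4.69 in mock cells, 3.82 with *miR-486-5p* and 4.42 with *miR-486-3p*. *CDKN1B* and *CDKN1C* were highest after *miR-486-3p*, and *CDKN2D* was lowest after *miR-486-5p*, as was *CDKN1C* by a small margin. Against mock, *CDKN1B* was 1.98-fold and *CDKN1C* 2.37-fold higher after *miR-486-3p*, and limma called both. *CDKN2D* fell 1.88-fold after *miR-486-5p* (adjusted p = 0.0488 in limma). That call was lost with no filter on dim probes and with the authors' log2 table. In the direct contrast *CDKN2D* was higher after *miR-486-3p* by 0.61 (adjusted p = 0.038 in limma). This second call was lost with median scaling and with no filter on dim probes.

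Of the 14 transcription cyclins and kinases, limma called 6 higher and 1 lower after *miR-486-3p*, where it called 31.9% of all genes higher and 31.6% lower. Their median difference was 0.33 with the 75th percentile but −0.04 with median scaling, so the group as a whole had no settled direction. *CCNL2*, a cyclin of splicing-related CDKs, averaged 0.85 on each mock array, 1.47 with *miR-486-5p* and 2.75 with *miR-486-3p* over 3 probes. *CCNL1*, its close relative, averaged 0.93 and 0.90 in mock cells, 1.03 with *miR-486-5p* and 2.16 with *miR-486-3p*. *CCNT1*, the cyclin of CDK9 in the elongation factor P-TEFb, averaged −0.00 and 0.06 in mock cells, 0.25 with *miR-486-5p* and 1.19 with *miR-486-3p*. In all 3 the *miR-486-3p* array was the highest, by 3.74-fold, 2.36-fold and 2.24-fold over mock. The 3 probes of *CCNL2* rose by unequal amounts, from 1.09 to 2.62. *CDK9* itself, *CDK13* and *CDK10* were also called higher, at 0.84, 0.80 and 0.46, but *CDK10* was not called with median scaling, where it was at 0.09. *CCNH*, the cyclin of the CDK7 complex, fell by 0.82 (adjusted p = 0.0149 in limma). The other 7 genes of the group were not called, with differences between −0.50 and 0.35. After *miR-486-5p* limma called 0 of the 14, and *CCNL2* at 0.62 was the only gene of the group past 0.5.

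Among the 9 remaining genes, *CDK16*, a kinase activated by cyclin Y, had levels of 6.12 and 6.18 in mock cells, 5.56 with *miR-486-5p* and 4.63 with *miR-486-3p*. The related kinase *CDK17* was at −0.88 and −1.01 in mock cells, −0.97 with *miR-486-5p* and −1.88 with *miR-486-3p*. *CCNI*, of an atypical cyclin class, had 5.30 and 5.28 in mock cells and 5.73 with *miR-486-3p*, and lay 0.71 above the mock average with *miR-486-5p*. The kinases were lowest after *miR-486-3p*, by 2.87-fold and 1.92-fold, and *CCNI* was above both mock arrays after either strand and highest after *miR-486-5p*. *CDK5* and *CDK20* were called higher after *miR-486-3p*, at 0.88 and 0.53. With median scaling *CDK20* and *CCNI* were not called there, at 0.16 and 0.07. The probes of *CCNG2* disagreed, at −0.33, −0.05 and 0.65 after *miR-486-3p*, and the one at 0.65 was not well above background after *miR-486-5p*. *CCNJ* and *CDK14* were not called for either strand.

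Genes that act with this family were counted from 4 further lists. The limma calls of these lists were not counted with median scaling, where *CCND1*, at 0.53 after *miR-486-3p*, lost its call. With *miR-486-5p*, each limma count of these lists stands beside 6.66% of all genes lower and 3.58% higher. Of 19 RB, E2F and MuvB genes, the limma calls were 4 lower and 0 higher with *miR-486-5p* (median −0.47), and 13 lower and 4 higher after *miR-486-3p* (median −0.98), where 31.6% and 31.9% of all genes were called. *E2F1*, an activator of S phase genes, had 2.25 and 2.23 in mock cells, 0.85 with *miR-486-5p* and −0.79 with *miR-486-3p*. *E2F2*, of the same subgroup, had 3.75 and 3.72 in mock cells, 2.34 with *miR-486-5p* and 0.09 with *miR-486-3p*. *FOXM1*, an activator of G2/M genes, stood at 3.79 and 3.86 in mock cells, 2.92 with *miR-486-5p* and 0.03 with *miR-486-3p*. These activators were lower than mock after either strand and lowest after *miR-486-3p*. The pocket protein *RBL2* and the repressive *E2F5* rose after *miR-486-3p*, by 1.34 and 1.27, while *E2F5* was at −0.61 after *miR-486-5p*. *LIN37*, a MuvB subunit, had a difference of 0.69 after *miR-486-5p*, not called by limma, and rose by 0.62 after *miR-486-3p*.

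Of 25 ubiquitin ligase genes for cyclins and inhibitors, the limma calls were 4 lower and 0 higher with *miR-486-5p* (median −0.01), and 10 lower and 9 higher after *miR-486-3p* (median 0.07), beside 31.6% and 31.9% of all genes. *UBE2C*, the E2 enzyme of the anaphase-promoting complex, fell by 1.31 with *miR-486-5p* and by 2.86 with its partner strand, and *CDC20*, its mitotic activator, by 1.16 and by 2.09. Other genes of the complex were not uniform after *miR-486-3p*: limma called *ANAPC13*, *CDC26* and *ANAPC10* higher and *ANAPC1*, *ANAPC7*, *ANAPC11* and *ANAPC15* lower. *ANAPC10* was at 0.41 there, and its call was not examined with median scaling. *CDC23*, a core subunit of that complex, fell by 1.25 after *miR-486-5p*, and its difference after *miR-486-3p* was 0.17. The F-box genes *FBXW7* and *BTRC* rose after *miR-486-3p*, by 1.58 and 1.47. FBXW7 marks cyclin E for degradation, and its mRNA was highest on the array where *CCNE1* mRNA was highest too.

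Of 30 other cyclins, CDKs and partners, 28 could be tested. After *miR-486-5p* limma called 4 lower and 2 higher, 1 of the latter (*CDKL4*) from a probe that was dim in mock cells too, and after *miR-486-3p* 8 lower and 9 higher, with medians of −0.13 and −0.09. The latter counts stand beside 31.6% and 31.9% of all genes. *CABLES2*, which encodes a CDK-binding protein, moved in opposite directions, at −1.40 with *miR-486-5p* and 0.78 with *miR-486-3p*, both called by limma. *CDK5RAP1* fell by 1.02 after *miR-486-5p*. *CDKN1A*, which encodes p21, had −1.30 and −1.25 in mock cells, −0.52 with *miR-486-5p* and −0.80 with *miR-486-3p*. Both strands lay above both mock arrays for *CDKN1A*, by 0.76 and 0.48, and limma called the latter. That call was not examined with median scaling. After *miR-486-3p*, *CCNB3* and *CABLES1* fell by 1.71 and 1.70, and *CCNP* and *CDKL3* rose by 1.35 and 1.28. *CDKL3* was at 0.74 after *miR-486-5p*, not called.

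Among 12 partners of the transcription CDKs, 11 of them measured, the limma calls were 1 lower and 0 higher with *miR-486-5p*, and 3 lower and 3 higher after *miR-486-3p*, with medians of −0.10 and 0.06, and the same shares of all genes apply. *MED12*, a subunit of the CDK8 module of Mediator, fell by 0.96 and by 1.07. *HEXIM1*, which holds P-TEFb inactive, rose by 0.98 after *miR-486-3p*, as did *MED12L* by 0.75. *MEPCE*, which caps the RNA of the same inhibitory complex, fell by 0.80 after *miR-486-3p* and was at 0.81 with the 5p strand, not called. In the direct contrast it was lower after *miR-486-3p* by 1.61, called by limma.

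**Figure D5:**
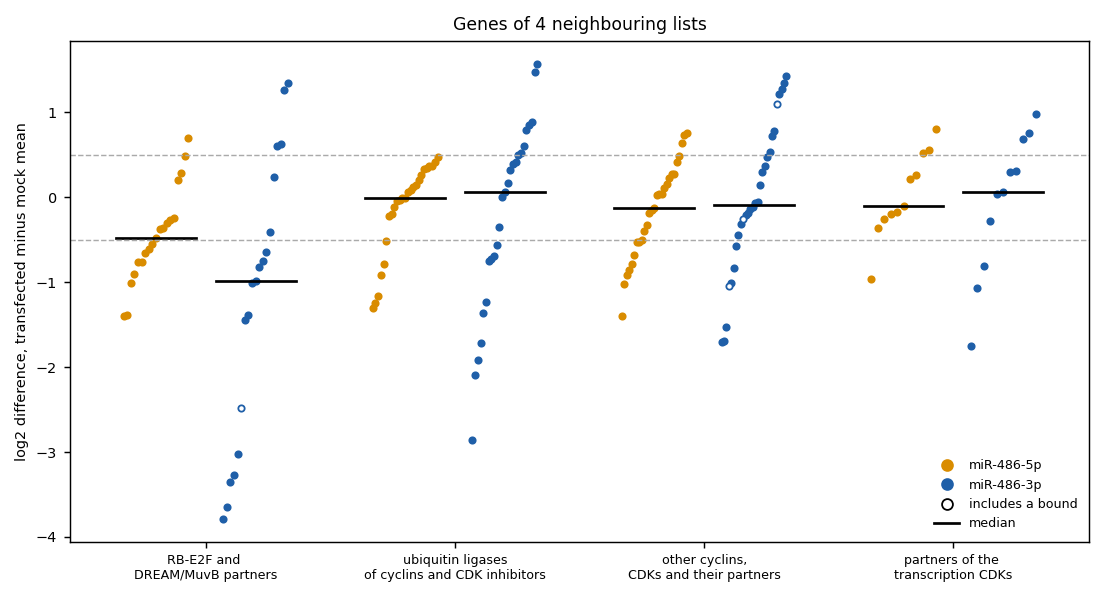
Log2 difference from the mock average (y axis) of each gene in the 4 further lists (x axis), for *miR-486-5p* and *miR-486-3p*, with the list medians as black bars and open points where a bound is included. The RB, E2F and MuvB list has the lowest medians, −0.47 and −0.98.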

How the data were processed

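The authors deposited the Agilent Feature Extraction (version 12.1.1.1) output of each array, in which each spot has a background-corrected intensity, and a table of log2 values of the same arrays; how the authors normalized that log2 table is not given in the sources used here. Spots marked as outliers (50 to 72 per array) were left out, spots of a probe were averaged, and the 75th percentile of log2 signal was subtracted on each array. Of 33077 probes with a RefSeq accession, 31101 matched a gene through a GRCh38.p14 table. Probes entered a comparison when every array of at least 1 side was well above background there, and a dim opposite side was taken as a bound. limma (version 3.58.1, R 4.3.3) was fitted to the 33498 probes that passed for any of the 3 groups, so that a call can come from a probe dim on both sides of its own comparison. The fit had 1 residual degree of freedom, and its prior had 1.75 degrees of freedom.

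A single slide, scanned once, carried all 4 arrays (slide 1, scan 1). Nothing in the labels says that the mock arrays came from separate cultures, so p-values measure only the spread between them, which may be technical. The number of arrays limits the precision.

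The genes and lists were chosen with earlier results of these data known. Values on every array are given for genes past 0.5 in size with both mock arrays on 1 side, with all probes well above background (up to 25 per strand), and for *CDKN2A* and *CDKN2B*. From each further list the 2 largest falls and 2 largest rises per strand are named. Some items that these rules would name are not reported here. Others named were chosen after their values were seen.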

Additional observations from a re-analysis of the deposited data

How the results depend on the processing

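No cyclin or CDK gene with a difference past 0.5 changed sign under any setting tried for differences, and the counts below −0.5 after *miR-486-3p* stayed within 1.5 times the reported one. Without either mock array, 16 to 17 genes lay below −0.5 and 3 above 0.5 after *miR-486-5p*, with medians from −0.21 to −0.12, and 23 to 24 lay below and 11 to 12 above after *miR-486-3p*, with medians from −0.48 to −0.32; limma then has no residual degree of freedom and gives no test. Median scaling moved the median of all genes after *miR-486-3p* from 0.06 to −0.32. The median of the cyclin and CDK genes became −0.77, with 7 genes above 0.5. This scaling moves all genes of a comparison alike, so the gap of −0.45 between these medians cannot change. It moved the share of higher genes among those past 0.5 from 52.8% to 29.9% after *miR-486-3p* and from 46.5% to 36.3% after *miR-486-5p*, and among limma calls from 50.2% to 31.1% after *miR-486-3p* and from 49.4% to 33.1% between the strands. Under normexp 1 gene lay above 0.5 after *miR-486-5p*. A limit of 1 gave 7 below and 0 above after *miR-486-5p* and 5 above after *miR-486-3p*. The limma counts after *miR-486-5p* were 22 lower and 8 higher with the intensity trend, 16 and 1 with median scaling, 2 higher with quantile normalization, 22 and 7 with normexp, 17 and 6 with probes well above background on all 4 arrays, 0 lower with no filter, and 0 lower with the authors' log2 table. With every probe of a gene called in one direction, 7 were higher between the strands. The methods' t-test gave 0 after adjustment for each strand. After *miR-486-3p*, limma called 22 or 23 of the 23 lower genes and 9 to 13 of the 13 higher genes again under each of its other settings, and median scaling lost *CCND1*, *CCNI*, *CDK10* and *CDK20*. *CCNG2* turned from higher to lower between the strands with quantile normalization and the authors' table, through different probes. Calls taken only from probes well above background on a side of the comparison, an alternative chosen after seeing the data, left every limma count of the cyclin and CDK genes as it was. The causes were not tested. No paired analysis was possible because each strand has 1 array, so the groups share fewer than 2 replicate numbers. A slide block was not run, since all arrays lay on 1 slide. Dim probes such as that of *CDKN2B* after *miR-486-3p*, close to the lowest signal well above background, limit the size of their differences.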
